A study of Mus musculus with 12 samples.

Results

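The ATF4 amino acid stress response genes described here are 39 genes named in a list, matched by mouse symbol to the gene identifiers of the deposited count tables. The list was chosen with earlier results of these data known. Shares of members set beside all genes therefore describe the list and are not independent support. All 39 were found among the 49315 genes of the tables, and all 39 passed the filter on low counts among the 17164 genes tested. RNA was measured in cultured mouse Müller glia, the radial support cells that span the neural retina, kept in transwell plates together with cultured retinal pigment epithelium (RPE). Treatment of the RPE was with 100 nM PNU-282987 in DMSO or with DMSO alone, PNU-282987 (PNU below) being a drug that activates the α7 type of nicotinic receptor. The 4 groups, each of 3 libraries, were glia cultured for 2 h with PNU-treated RPE, for 2 h with DMSO-treated RPE, for 6 h with PNU-treated RPE and for 6 h with DMSO-treated RPE. All cells came from wild-type mice of an age not given in the labels, both cell types had been passaged several times, and all 4 groups were exposed to RPE and DMSO. The labels give 0.1% DMSO in one protocol and 1% in another. The sample titles call the 3 libraries of each group biological replicates, but do not say whether they came from separate animals or cultures. The p-values therefore reflect only how far these samples vary, which may be technical.

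ATF4 is a transcription factor whose protein is made when kinases that sense amino acid shortage, unfolded proteins, haem deficiency or double-stranded RNA phosphorylate the translation factor eIF2. It binds DNA as a dimer, often with a C/EBP protein, and turns on genes that make amino acids, take them up and load them onto tRNAs. It also turns on genes that damp the response, such as the eIF2 phosphatase subunit Ppp1r15a. The mTORC1 kinase, which responds to growth factors and amino acids, is another known driver of ATF4 and of its biosynthetic targets. Only RNA was measured here, so the amount of ATF4 protein is not known.

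Library totals ran between 44332013 and 66518799 counts, at which 3 counts equal 0.0451 to 0.0677 CPM, for counting error only. CPM is the count scaled to the library's total count. The lowest count of any member in any library was 402, for Slc7a11. Of 10 fixed Müller glia markers 5 had a median above 1 CPM, against 7 of 8 fibroblast and pericyte markers, 2 of 8 RPE markers, 1 of 4 leukocyte markers and 1 of 5 neuron markers. Glul, a defining Müller glia enzyme, stood at 61.5 to 94.4 CPM, but Rlbp1 at 0.0435 to 0.302 CPM and Aqp4 at 0 to 0.218 CPM, while the collagen gene Col1a1 reached 3509 to 4895 CPM. The label of Müller glia was therefore borne out by some of its markers only. Summed CPM of the 8 fibroblast and pericyte markers was 15370 to 16793 with PNU and 15481 to 17575 with DMSO at 2 h, and 16006 to 17227 with PNU and 15250 to 15294 with DMSO at 6 h. In such bulk samples, fewer cells of a type and less RNA per cell cannot be told apart.

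Several libraries stood apart or were almost the same. All 3 DMSO libraries at 6 h, PNU replicates 2 and 3 at 2 h and PNU replicates 2 and 3 at 6 h were near-identical, with coefficients of variation of 0.0163 to 0.0223 over 5 pairs, against 0.148 to 0.384 in the other 7 pairs. Their chi-square per gene was 1.96 to 3.17, above that of sampling noise alone, against 22.6 to 251 in the other 7 pairs. Such an excess does not show that they came from separate cultures. They were counted as separate samples. DMSO replicate 3 at 2 h stood above both other DMSO libraries for 32 of the 39 members and nearer to the PNU mean for 34. PNU replicate 1 at 6 h stood above both other PNU libraries for 24 members and below both for 14. The Y-linked gene Ddx3y also differed within groups, with 2.23, 0.0870 and 0.0150 CPM with PNU and 0.0338, 0.0386 and 5.00 CPM with DMSO at 2 h. At 6 h it stood at 0.141, 7.43 and 6.74 CPM with PNU and at 0.0451, 0.0378 and 0.141 CPM with DMSO, and the part of this difference in the results was not tested.

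Most calls among the members were over time in the PNU cultures. Of the 39 members, 29 fell and 0 rose in PNU cultures at 6 h against 2 h, where 8.66% of all genes tested fell and 7.42% rose (edgeR quasi-likelihood test, Benjamini-Hochberg adjusted p under 0.05). All 11 tRNA synthetases fell, as did 7 of 9 amino acid and one-carbon enzymes, 5 of 7 amino acid carriers, 4 of 7 regulators and 2 of 5 stress effectors. The median log2 fold change of the members was -0.66, against 0.03 over all genes tested. The glutathione-degrading enzyme Chac1 fell furthest, to 21.4 ± 7.23 CPM in PNU cultures at 6 h, against 77.3 ± 1.77 CPM at 2 h (SD, n = 3 each). Replicates 2 and 3 were near-identical in both PNU groups, with coefficients of variation of 0.0172 at 2 h and 0.0223 at 6 h. How the calls changed with such libraries summed or left out is given further below. In DMSO cultures at 6 h against 2 h, 0 members passed edgeR's test, DESeq2 or limma-voom, 5 members had an unadjusted p under 0.05, against 4.77% of genes, and 0% of all genes tested passed in edgeR. Between PNU and DMSO, 1 member rose at 2 h in edgeR's test, the mTORC1 inhibitor gene Ddit4, against 0.210% of genes higher, and 0 members fell, against 0.0816% lower. At 6 h 0 members passed edgeR's test, against 1.05% of genes.

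**Figure D1:**
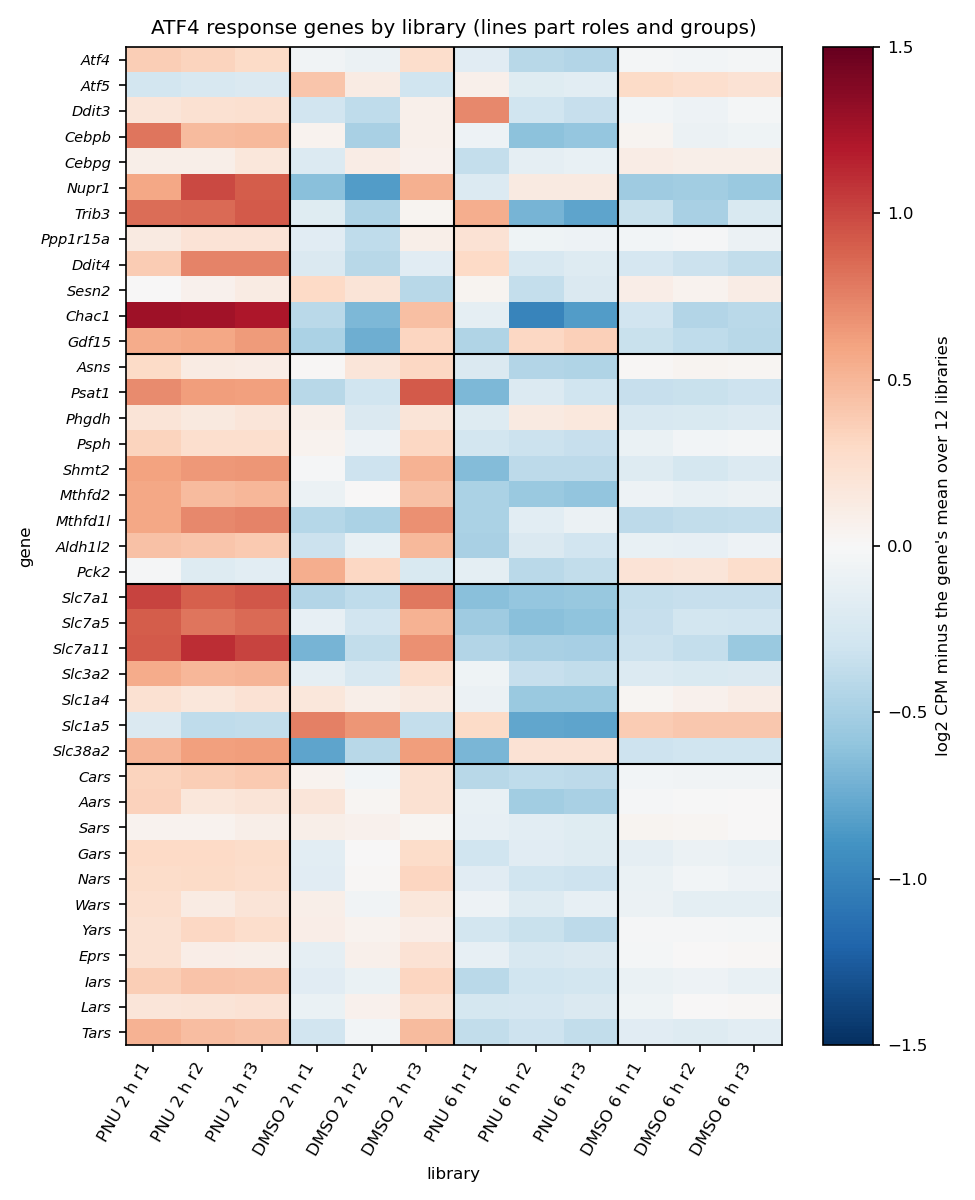
Heat map of the 39 members (rows, by role) in the 12 libraries (columns, by group), coloured by log2 CPM minus the member's mean over the 12 libraries. The 3 PNU libraries at 2 h are the highest block for most members, DMSO replicate 3 at 2 h resembles them, and most members are lowest in PNU libraries at 6 h.

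Levels differed widely between members. Per kilobase of counted gene length, which allows genes to be compared, Atf5 stood highest with a mean of 472 CPM per kb over the 12 libraries. It was followed by Phgdh with 180, Atf4 with 152, Nars with 127 and Cebpb with 79.7 CPM per kb. The lowest were Aldh1l2 with 7.85, Trib3 with 7.62, Cebpg with 5.84 and the cystine carrier Slc7a11 with 0.914 CPM per kb. Transcription factors were thus found at both ends of the order.

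Promoters of the members were searched for TGATGNAA on both strands, the form of the composite site at which ATF4 binds with a C/EBP partner. RefSeq promoter windows on GRCm38.p6, each holding 250 bases before the start site and 50 after it, were available for 32 members. The motif was present in 12 of these 32 members (37.5%), against 1219 of 27025 genes (4.51%), and in 12 of 36 member windows (33.3%), against 1304 of 32851 windows (3.97%). Nupr1, Trib3, Chac1, Asns, Pck2, Slc7a11, Slc1a4, Aars, Gars, Yars, Iars and Tars held it. Among them, 10 of 12 fell over time in PNU cultures, where 8.66% of all genes tested fell. So did 13 of the 20 members without it and 6 of the 7 with no window. Whether these shares differed was not tested. A match is a description of letters in a window and not evidence of binding. The list was chosen as ATF4 targets, serine and one-carbon enzymes, amino acid carriers and tRNA synthetases. A high motif share can come from that choice and says nothing of these cultures. For 8 members the motif lay before the start site, and the stretches around it are shown to let the sites be compared, 5′ to 3′ on the gene's strand, with the motif in capitals.
Nupr1 (chr7:126625553-126625620, minus strand): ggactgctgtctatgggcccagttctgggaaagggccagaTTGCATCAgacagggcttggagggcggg
Chac1 (chr2:119351009-119351076, plus strand): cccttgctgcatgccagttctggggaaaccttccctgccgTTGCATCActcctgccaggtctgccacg
Asns (chr6:7693210-7693272, minus strand): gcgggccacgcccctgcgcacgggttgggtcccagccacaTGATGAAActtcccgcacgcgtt
Pck2 (chr14:55540123-55540190, plus strand): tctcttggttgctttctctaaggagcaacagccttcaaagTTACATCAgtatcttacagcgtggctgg
Slc7a11 (chr3:50443652-50443719, minus strand): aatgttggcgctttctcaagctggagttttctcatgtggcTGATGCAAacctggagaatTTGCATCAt
Aars (chr8:111033690-111033757, plus strand): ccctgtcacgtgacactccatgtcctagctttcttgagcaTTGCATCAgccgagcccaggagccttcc
Gars (chr6:55037931-55037998, plus strand): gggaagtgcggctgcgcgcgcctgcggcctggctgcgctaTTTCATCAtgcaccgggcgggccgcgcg
Tars (chr15:11399659-11399713, minus strand): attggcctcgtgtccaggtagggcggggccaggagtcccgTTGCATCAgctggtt
Slc7a11 held 2 copies in opposite orientation, Aars held a further copy, not wholly before the start site, that is not shown, and the reverse form TTGCATCA recurred in Nupr1, Chac1, Slc7a11, Aars and Tars.

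Among the regulators, Atf4, Cebpb, Cebpg and Trib3 fell over time in PNU cultures, while Atf5, Ddit3 and Nupr1 did not pass edgeR's test. Atf4 (ENSMUSG00000042406, GRCm38 chr15:80255184-80257540, plus strand) encodes the factor that names the response. It stood at 333, 325 and 315 CPM in the PNU libraries at 2 h, against 248, 242 and 310 CPM in the DMSO libraries. Its 6 h values were 229, 193 and 189 CPM in the PNU libraries, against 252, 249 and 252 CPM in the DMSO libraries. All 3 PNU libraries lay above all 3 DMSO libraries at 2 h and below them at 6 h, although neither difference passed the test (log2 fold change 0.32 ± 0.11 SE, adjusted p = 0.0950 at 2 h, log2 fold change -0.29 ± 0.11 SE, adjusted p = 0.226 at 6 h). Within PNU cultures Atf4 fell (log2 fold change -0.73 ± 0.11 SE, adjusted p = 0.00467). Trib3, a pseudokinase that ATF4 induces and that damps its activity, had 26.5, 26.7 and 28.0 CPM in the PNU libraries at 2 h, against 13.0, 10.7 and 15.2 CPM in the DMSO libraries. After 6 h the gene stood at 21.6, 9.14 and 8.56 CPM in the PNU libraries, against 11.7, 10.6 and 12.6 CPM in the DMSO libraries. The PNU libraries lay above every DMSO library at 2 h, while at 6 h PNU replicate 1 was high and the other two PNU libraries were below all DMSO libraries. Trib3 fell over time with PNU (log2 fold change -1.11 ± 0.30 SE, adjusted p = 0.0327), and its excess over DMSO at 2 h did not pass (log2 fold change 1.09 ± 0.30 SE, adjusted p = 0.0709).

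Cebpb and Cebpg encode C/EBP proteins that can pair with ATF4. Cebpb had 200, 160 and 161 CPM with PNU and 119, 82.0 and 121 CPM with DMSO at 2 h. At 6 h Cebpb had 109, 75.0 and 76.7 CPM with PNU and 118, 108 and 110 CPM with DMSO. Its PNU libraries were all above the DMSO libraries at 2 h and overlapped with them at 6 h, and it fell over time in PNU cultures (log2 fold change -1.06 ± 0.19 SE, adjusted p = 0.00784). Cebpg had 34.6, 34.7 and 36.7 CPM with PNU and 28.4, 35.2 and 34.0 CPM with DMSO at 2 h. At 6 h Cebpg had 25.4, 29.8 and 30.1 CPM with PNU and 35.2, 34.8 and 34.7 CPM with DMSO. The groups overlapped at 2 h, and at 6 h all PNU libraries were lower, with a fall over time of smaller size (log2 fold change -0.37 ± 0.09 SE, adjusted p = 0.0196). Ddit3, which encodes the stress factor CHOP, had 83.2, 86.3 and 86.8 CPM with PNU and 60.4, 56.3 and 77.2 CPM with DMSO at 2 h. At 6 h Ddit3 had 121, 59.9 and 57.6 CPM with PNU and 71.4, 69.9 and 72.2 CPM with DMSO. PNU replicate 1 at 6 h was the highest of all 12 libraries and the other two PNU libraries were below the DMSO libraries, and no contrast of Ddit3 passed in edgeR's test over all 12 libraries. Nupr1, a small stress-induced chromatin protein, had 115, 153 and 145 CPM with PNU and 50.2, 43.2 and 112 CPM with DMSO at 2 h. At 6 h Nupr1 had 67.2, 84.8 and 84.9 CPM with PNU and 53.3, 53.9 and 52.3 CPM with DMSO. Its PNU libraries were above the DMSO libraries at both times, with no contrast passing edgeR's test (log2 fold change 1.04 ± 0.29 SE, adjusted p = 0.0749 at 2 h). DESeq2 called Nupr1 higher with PNU at 2 h (adjusted p = 0.00829) and, over time in PNU cultures, both DESeq2 (0.0205) and edgeR with a replicate block (0.0447) called it lower, with a log2 fold change of -0.86. Atf5, a relative of ATF4 under the same translational control, had 768, 786 and 795 CPM with PNU and 1238, 1008 and 752 CPM with DMSO at 2 h. At 6 h Atf5 had 977, 815 and 833 CPM with PNU and 1134, 1105 and 1082 CPM with DMSO. It was the only member with a positive log2 fold change over time in PNU cultures (log2 fold change 0.10 ± 0.15 SE, adjusted p = 0.655).

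Of the stress effectors, Ddit4 and Chac1 fell over time in PNU cultures and Ddit4 was the single member to rise with PNU at 2 h in edgeR's test. DESeq2 (adjusted p = 4.96e-06), limma-voom (0.0336) and edgeR with a replicate block (0.0301) called Ddit4 as well, but not alone: limma-voom also called Chac1, and DESeq2 called 17 members in all. Ddit4 (ENSMUSG00000020108, GRCm38 chr10:59949675-59951770, minus strand) encodes REDD1, an inhibitor of mTORC1. It stood at 90.9, 117 and 117 CPM in the PNU libraries at 2 h, against 60.4, 52.7 and 62.3 CPM in the DMSO libraries. In the 6 h libraries it stood at 86.2, 59.4 and 61.3 CPM in the PNU libraries, against 58.8, 56.2 and 54.4 CPM in the DMSO libraries. Every PNU library was above every DMSO library at both times, by more at 2 h (log2 fold change 0.92 ± 0.15 SE, adjusted p = 0.0366) than at 6 h (log2 fold change 0.30 ± 0.15 SE, adjusted p = 0.358), and the difference between the 2 effects did not pass (log2 fold change -0.62 ± 0.21 SE, adjusted p = 0.327). The call at 2 h ended without PNU replicate 2 (adjusted p = 0.188), PNU replicate 3 (0.204), DMSO replicate 1 (0.112) or DMSO replicate 2 (0.177) in the same edgeR test. It also ended with the 6 libraries at 2 h fitted alone (0.266) and with near-identical libraries summed (0.550). Over time in PNU cultures Ddit4 fell (log2 fold change -0.71 ± 0.15 SE, adjusted p = 0.0144).

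Chac1 (ENSMUSG00000027313, GRCm38 chr2:119351229-119354381, plus strand) had 78.8, 77.9 and 75.4 CPM in the PNU libraries at 2 h, against 24.7, 20.4 and 44.6 CPM in the DMSO libraries. Its 6 h values were 29.7, 16.4 and 18.2 CPM in the PNU libraries, against 26.8, 24.0 and 24.7 CPM in the DMSO libraries. Its PNU libraries were the 3 highest of all 12 at 2 h, DMSO replicate 3 was the next highest, and the groups overlapped at 6 h. The fall over time in PNU cultures passed (log2 fold change -1.91 ± 0.29 SE, adjusted p = 0.00489), and the excess over DMSO at 2 h did not pass edgeR's test (log2 fold change 1.40 ± 0.28 SE, adjusted p = 0.0583). That excess was called by limma-voom (adjusted p = 0.0374), DESeq2 (0.000123), edgeR with a replicate block (0.0407) and edgeR without DMSO replicate 3 (0.000185). With any other library at 2 h left out the adjusted p in edgeR was 0.0820 to 0.221, with these 6 libraries fitted alone it was 0.266, and with near-identical libraries summed it was 0.550. Gdf15, a secreted stress cytokine, had 59.7, 60.6 and 62.7 CPM with PNU and 29.2, 24.4 and 50.6 CPM with DMSO at 2 h. At 6 h Gdf15 had 29.6, 50.1 and 51.9 CPM with PNU and 32.1, 31.1 and 30.4 CPM with DMSO. PNU was above DMSO in all libraries at 2 h, and at 6 h PNU replicate 1 was below all DMSO libraries. Ppp1r15a, the stress-induced subunit that directs a phosphatase to eIF2, had 74.5, 78.6 and 78.3 CPM with PNU and 60.5, 52.2 and 72.5 CPM with DMSO at 2 h. At 6 h Ppp1r15a had 78.9, 65.1 and 64.7 CPM with PNU and 66.1, 67.0 and 63.9 CPM with DMSO. Its PNU libraries were all higher at 2 h and overlapped with DMSO at 6 h. Sesn2, a leucine sensor that restrains mTORC1, had 46.6, 48.6 and 50.3 CPM with PNU and 57.2, 52.8 and 34.8 CPM with DMSO at 2 h. At 6 h Sesn2 had 47.6, 36.1 and 40.0 CPM with PNU and 49.8, 48.1 and 49.9 CPM with DMSO. The 2 h groups overlapped, with DMSO replicate 3 lowest, and no contrast of Gdf15, Ppp1r15a or Sesn2 passed edgeR's test. For Gdf15 at 2 h (log2 fold change 0.84 ± 0.26 SE, adjusted p = 0.0803), DESeq2 called it higher with PNU (log2 fold change 0.85, adjusted p = 0.0175), as did edgeR without DMSO replicate 3 (adjusted p = 0.000829).

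**Figure D2:**
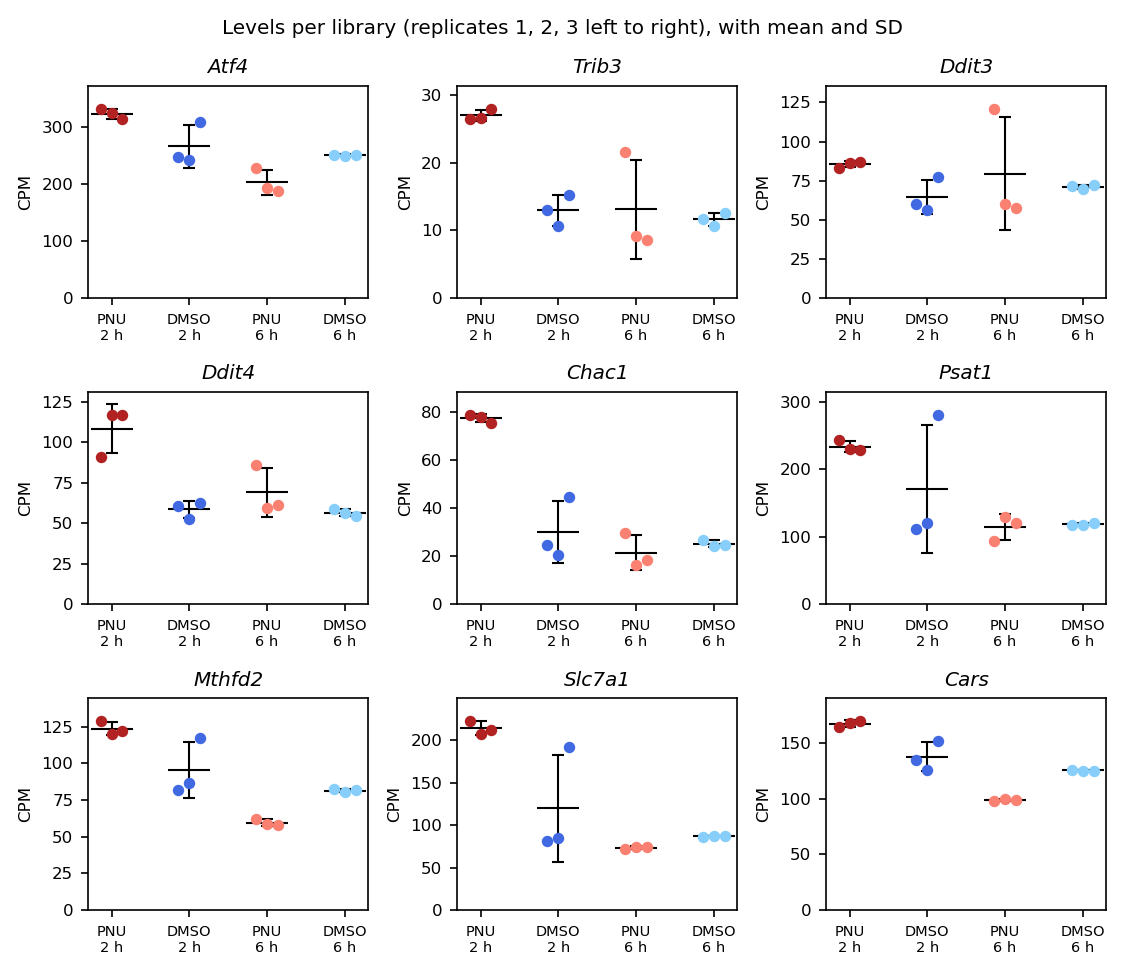
Levels of 9 members in CPM (vertical axes, from 0) in each library, by group (PNU and DMSO at 2 h, PNU and DMSO at 6 h), with points for libraries and black marks for group means ± SD. Chac1 shows 75.4 to 78.8 CPM in PNU libraries at 2 h, against 20.4 to 44.6 CPM with DMSO, and PNU libraries of Cars and Mthfd2 lie below the DMSO libraries at 6 h.

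The enzymes fell in 7 of 9 cases over time in PNU cultures. The mitochondrial folate enzymes Shmt2 and Mthfd2 had the largest log2 fold changes of the 9. Mthfd2, which oxidises methylene-tetrahydrofolate in mitochondria, had 129, 120 and 122 CPM with PNU and 81.7, 86.8 and 117 CPM with DMSO at 2 h. At 6 h Mthfd2 had 62.1, 58.8 and 57.7 CPM with PNU and 82.3, 80.4 and 81.6 CPM with DMSO. Every PNU library was above the DMSO libraries at 2 h and below them at 6 h, and Mthfd2 fell over time with the smallest adjusted p of the 9 enzymes (log2 fold change -1.12 ± 0.12 SE, adjusted p = 0.00151). Shmt2, the mitochondrial serine hydroxymethyltransferase, had 213, 221 and 223 CPM with PNU and 139, 113 and 202 CPM with DMSO at 2 h. At 6 h Shmt2 had 89.7, 107 and 107 CPM with PNU and 123, 117 and 122 CPM with DMSO. The same order held as for Mthfd2, with DMSO replicate 3 at 2 h close to the PNU libraries, and Shmt2 fell over time (log2 fold change -1.18 ± 0.17 SE, adjusted p = 0.00435). Mthfd1l, which releases formate from mitochondria, had 115, 127 and 129 CPM with PNU and 57.4, 55.5 and 124 CPM with DMSO at 2 h. At 6 h Mthfd1l had 55.4, 68.9 and 72.2 CPM with PNU and 58.6, 59.5 and 60.2 CPM with DMSO. The groups overlapped at both times through DMSO replicate 3 at 2 h and PNU replicate 1 at 6 h, and the fall with time passed (log2 fold change -0.98 ± 0.26 SE, adjusted p = 0.0289). Aldh1l2, the mitochondrial formyl-tetrahydrofolate dehydrogenase, had 78.1, 76.4 and 75.6 CPM with PNU and 45.9, 53.1 and 80.2 CPM with DMSO at 2 h. At 6 h Aldh1l2 had 40.8, 49.3 and 47.0 CPM with PNU and 53.0, 52.7 and 54.5 CPM with DMSO. DMSO replicate 3 was the highest library at 2 h, the PNU libraries were the 3 lower ones at 6 h, and Aldh1l2 fell over time (log2 fold change -0.81 ± 0.16 SE, adjusted p = 0.0120).

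Asparagine synthetase, Asns, had 178, 160 and 158 CPM with PNU and 148, 166 and 181 CPM with DMSO at 2 h. At 6 h Asns had 126, 108 and 107 CPM with PNU and 148, 151 and 149 CPM with DMSO. At 2 h the groups overlapped, and at 6 h every PNU library was below every DMSO library, without passing (log2 fold change -0.38 ± 0.09 SE, adjusted p = 0.0816), while the fall over time in PNU cultures passed (log2 fold change -0.60 ± 0.09 SE, adjusted p = 0.00509). Serine is made from a glycolytic intermediate by Phgdh, Psat1 and Psph in turn. Phgdh, the first enzyme, had 506, 492 and 501 CPM with PNU and 468, 380 and 508 CPM with DMSO at 2 h. At 6 h Phgdh had 386, 487 and 494 CPM with PNU and 374, 378 and 384 CPM with DMSO. It was higher in all PNU libraries at 6 h and passed edgeR's test in no contrast. Psat1, the aminotransferase, had 243, 230 and 228 CPM with PNU and 111, 121 and 281 CPM with DMSO at 2 h. At 6 h Psat1 had 93.1, 129 and 121 CPM with PNU and 117, 118 and 120 CPM with DMSO. DMSO replicate 3 at 2 h exceeded every PNU library, the 6 h groups overlapped, and Psat1 fell over time with PNU (log2 fold change -1.09 ± 0.29 SE, adjusted p = 0.0303). Psph, the phosphatase of the last step, had 49.9, 47.0 and 47.2 CPM with PNU and 41.0, 37.5 and 49.1 CPM with DMSO at 2 h. At 6 h Psph had 32.6, 31.7 and 31.2 CPM with PNU and 36.8, 38.4 and 38.8 CPM with DMSO. It was lower in all PNU libraries at 6 h and fell over time in PNU cultures (log2 fold change -0.65 ± 0.10 SE, adjusted p = 0.00509). Pck2, which makes phosphoenolpyruvate in mitochondria, ranged between 86.0 and 167 CPM over the 12 libraries and passed edgeR's test in no contrast. Its level was lower with PNU than with DMSO at 2 h (log2 fold change -0.34 ± 0.16 SE, adjusted p = 0.189) and at 6 h (log2 fold change -0.51 ± 0.16 SE, adjusted p = 0.159). The groups overlapped at 2 h, and all PNU libraries were lower at 6 h.

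Of the 7 carriers, 5 fell over time in PNU cultures. Slc7a1 (ENSMUSG00000041313, GRCm38 chr5:148327410-148399904, minus strand), the carrier of arginine and lysine, had 223, 207 and 212 CPM in the PNU libraries at 2 h, against 81.8, 85.2 and 192 CPM in the DMSO libraries. After 6 h the gene stood at 71.7, 74.3 and 74.5 CPM in the PNU libraries, against 86.3, 87.5 and 87.3 CPM in the DMSO libraries. The PNU libraries were the 3 highest of all 12 at 2 h and the 3 lowest of all 12 at 6 h, and Slc7a1 fell over time (log2 fold change -1.60 ± 0.26 SE, adjusted p = 0.00634). Slc7a11, which imports cystine in exchange for glutamate, had 21.5, 24.4 and 22.9 CPM with PNU and 6.99, 8.76 and 18.2 CPM with DMSO at 2 h. At 6 h Slc7a11 had 8.36, 8.11 and 7.99 CPM with PNU and 9.07, 8.83 and 7.70 CPM with DMSO. Its PNU libraries were above DMSO at 2 h and overlapped with them at 6 h, and it fell over time (log2 fold change -1.55 ± 0.27 SE, adjusted p = 0.00767). Slc7a5, which imports leucine and other large neutral amino acids, had 260, 241 and 248 CPM with PNU and 127, 113 and 199 CPM with DMSO at 2 h. At 6 h Slc7a5 had 95.7, 89.4 and 90.8 CPM with PNU and 109, 114 and 113 CPM with DMSO. Its groups did not overlap at either time, with PNU higher at 2 h and lower at 6 h, and it fell over time (log2 fold change -1.50 ± 0.17 SE, adjusted p = 0.00164). Slc3a2, the heavy chain shared by Slc7a5 and Slc7a11, had 302, 291 and 292 CPM with PNU and 188, 174 and 245 CPM with DMSO at 2 h. At 6 h Slc3a2 had 197, 162 and 159 CPM with PNU and 178, 176 and 177 CPM with DMSO. PNU was higher at 2 h, PNU replicate 1 was the highest library at 6 h, and Slc3a2 fell over time (log2 fold change -0.83 ± 0.13 SE, adjusted p = 0.00509).

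Slc1a4, a carrier of alanine, serine and cysteine, had 97.3, 93.2 and 96.6 CPM with PNU and 93.2, 88.5 and 91.0 CPM with DMSO at 2 h. At 6 h Slc1a4 had 78.0, 56.4 and 56.2 CPM with PNU and 84.5, 86.8 and 89.5 CPM with DMSO. The groups overlapped at 2 h, all PNU libraries were lower at 6 h, and Slc1a4 fell over time (log2 fold change -0.65 ± 0.12 SE, adjusted p = 0.00840). Slc38a2, a sodium-coupled carrier of small neutral amino acids, had 217, 234 and 236 CPM with PNU and 88.4, 115 and 236 CPM with DMSO at 2 h. At 6 h Slc38a2 had 95.1, 177 and 178 CPM with PNU and 123, 124 and 124 CPM with DMSO. DMSO replicate 3 at 2 h was as high as the PNU libraries, PNU replicate 1 at 6 h was below every DMSO library, and no contrast passed edgeR's test. The glutamine carrier Slc1a5 ranged between 66.4 and 194 CPM and passed edgeR's test in no contrast. It was lower with PNU than with DMSO at 2 h (log2 fold change -0.72 ± 0.32 SE, adjusted p = 0.156) and at 6 h (log2 fold change -0.71 ± 0.32 SE, adjusted p = 0.311). The groups overlapped at 2 h, and all PNU libraries were lower at 6 h.

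All 11 tRNA synthetases of the list fell over time in PNU cultures, by log2 fold changes between -0.28 for Sars and -0.89 for Tars. These enzymes each load an amino acid onto its tRNA. Cars (ENSMUSG00000010755, GRCm38 chr7:143557230-143600090, minus strand), the enzyme for cysteine, had 164, 168 and 170 CPM in the PNU libraries at 2 h, against 135, 126 and 152 CPM in the DMSO libraries. In the 6 h libraries it stood at 97.7, 99.6 and 99.1 CPM in the PNU libraries, against 126, 125 and 125 CPM in the DMSO libraries. PNU was above DMSO in every library at 2 h and below it in every library at 6 h, and Cars fell over time (log2 fold change -0.82 ± 0.08 SE, adjusted p = 0.00124). Yars, for tyrosine, had 77.9, 82.3 and 79.7 CPM with PNU and 71.4, 69.2 and 71.5 CPM with DMSO at 2 h. At 6 h Yars had 54.9, 52.9 and 50.5 CPM with PNU and 65.5, 65.9 and 65.4 CPM with DMSO. It showed the same order at both times, and it fell over time (log2 fold change -0.66 ± 0.07 SE, adjusted p = 0.00124). Of all members these had the smallest adjusted p for the difference of the PNU effect between 6 h and 2 h, which did not pass (log2 fold change -0.64 ± 0.11 SE, adjusted p = 0.0886 for Cars, log2 fold change -0.51 ± 0.09 SE, adjusted p = 0.0886 for Yars). Gars, for glycine, had 274, 275 and 271 CPM with PNU and 201, 225 and 270 CPM with DMSO at 2 h. At 6 h Gars had 181, 198 and 196 CPM with PNU and 204, 210 and 207 CPM with DMSO. PNU was higher at 2 h and lower at 6 h in every library, by less at 6 h, and Gars fell over time (log2 fold change -0.57 ± 0.09 SE, adjusted p = 0.00597). Iars, for isoleucine, had 213, 223 and 221 CPM with PNU and 147, 155 and 207 CPM with DMSO at 2 h. At 6 h Iars had 125, 135 and 137 CPM with PNU and 154, 157 and 153 CPM with DMSO. It too was higher with PNU in every library at 2 h and lower at 6 h (log2 fold change -0.79 ± 0.11 SE, adjusted p = 0.00399 over time).

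In the remaining 7 synthetases the 2 h groups overlapped. Tars, for threonine, had 191, 184 and 181 CPM with PNU and 109, 129 and 185 CPM with DMSO at 2 h. At 6 h Tars had 103, 107 and 103 CPM with PNU and 118, 116 and 119 CPM with DMSO. DMSO replicate 3 was level with the PNU libraries at 2 h, and all PNU libraries were lower at 6 h (log2 fold change -0.89 ± 0.15 SE, adjusted p = 0.00609 over time). Aars, for alanine, had 449, 399 and 405 CPM with PNU and 403, 363 and 416 CPM with DMSO at 2 h. At 6 h Aars had 328, 246 and 253 CPM with PNU and 350, 352 and 355 CPM with DMSO. Every PNU library was lower at 6 h, with replicate 1 nearest to DMSO (log2 fold change -0.66 ± 0.12 SE, adjusted p = 0.00790 over time). Nars, for asparagine, had 400, 405 and 398 CPM with PNU and 294, 336 and 415 CPM with DMSO at 2 h. At 6 h Nars had 294, 269 and 267 CPM with PNU and 309, 323 and 314 CPM with DMSO. DMSO replicate 3 was the highest library at 2 h and PNU was lower at 6 h (log2 fold change -0.59 ± 0.10 SE, adjusted p = 0.00767 over time). Lars, for leucine, had 136, 137 and 139 CPM with PNU and 112, 125 and 140 CPM with DMSO at 2 h. At 6 h Lars had 100, 101 and 103 CPM with PNU and 115, 120 and 121 CPM with DMSO. Again DMSO replicate 3 was the highest at 2 h and all PNU libraries were lower at 6 h (log2 fold change -0.50 ± 0.08 SE, adjusted p = 0.00509 over time).

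Eprs, which loads glutamate and proline, had 263, 241 and 239 CPM with PNU and 204, 237 and 261 CPM with DMSO at 2 h. At 6 h Eprs had 205, 190 and 193 CPM with PNU and 219, 225 and 227 CPM with DMSO. PNU was lower in every library at 6 h (log2 fold change -0.40 ± 0.09 SE, adjusted p = 0.0164 over time). Wars, for tryptophan, had 140, 129 and 135 CPM with PNU and 125, 114 and 133 CPM with DMSO at 2 h. At 6 h Wars had 112, 103 and 108 CPM with PNU and 111, 107 and 107 CPM with DMSO. Its groups overlapped at both times, and its fall over time was one of the smallest among the synthetases (log2 fold change -0.38 ± 0.08 SE, adjusted p = 0.0159). Sars, for serine, had 264, 264 and 271 CPM with PNU and 272, 266 and 261 CPM with DMSO at 2 h. At 6 h Sars had 235, 229 and 224 CPM with PNU and 262, 261 and 257 CPM with DMSO. The 2 h levels were alike in PNU and DMSO libraries, PNU was lower in every library at 6 h, and the fall was the smallest of the 11 (log2 fold change -0.28 ± 0.06 SE, adjusted p = 0.0183).

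At 2 h, PNU was above DMSO for most members but few differences passed. Log2 fold changes were positive for 36 of 39 members, against 48.3% of all genes tested, with Atf5, Pck2 and Slc1a5 negative. Their median was 0.35, against -0.01 over all genes tested, and by role it was 0.84 for the stress effectors, 0.68 for the carriers, 0.44 for the regulators, 0.40 for the enzymes and 0.21 for the synthetases. All 3 PNU libraries were above all 3 DMSO libraries for 19 of 39 members (48.7%), against 9.06% of genes, and below them for 0 members, against 13.6%. An unadjusted p under 0.05 was found for 23 of 39 members, against 30.0% of genes. The count of members passing depended on DMSO replicate 3: without it 27 members were called higher and 3 lower, where 20.9% of genes were called higher and 22.9% lower. It was 0 without PNU replicate 2 or 3 or DMSO replicate 1 or 2. DESeq2 called 17 members higher, against 5.74% of genes, and limma-voom called 2 higher, against 0.361%. Some marker sums also differed between these groups: the 5 neuron markers summed to 33.9 to 34.8 CPM with PNU and 16.3 to 27.3 CPM with DMSO. Only 1 of these 5 had a median above 1 CPM, and Rbfox3 and Nefl were at 0 in some libraries. The 10 Müller glia markers summed to 7408 to 7735 CPM with PNU and 6236 to 7325 CPM with DMSO, nearly all of it Vim, a gene that fibroblasts express too. Of their defining genes, Slc1a3 had 1.15, 0.435 and 0.421 CPM with PNU and 2.06, 2.82 and 0.813 CPM with DMSO, and Rlbp1 had 0.0442, 0.0435 and 0.0601 CPM with PNU and 0.101, 0.135 and 0.0626 CPM with DMSO. Every PNU library was thus below every DMSO library for Rlbp1, while the groups overlapped for Slc1a3. The Rlbp1 values lay close to the 0.0451 to 0.0677 CPM that 3 counts equal. Glul overlapped too, with 66.7, 68.3 and 69.3 CPM with PNU and 66.2, 67.3 and 61.5 CPM with DMSO. Aqp4 went the other way near the floor, with 0, 0.109 and 0.0902 CPM with PNU and 0 CPM in each DMSO library. No marker of any list was at 0 in all 12 libraries, and the part of these markers in the result was not tested.

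**Figure D3:**
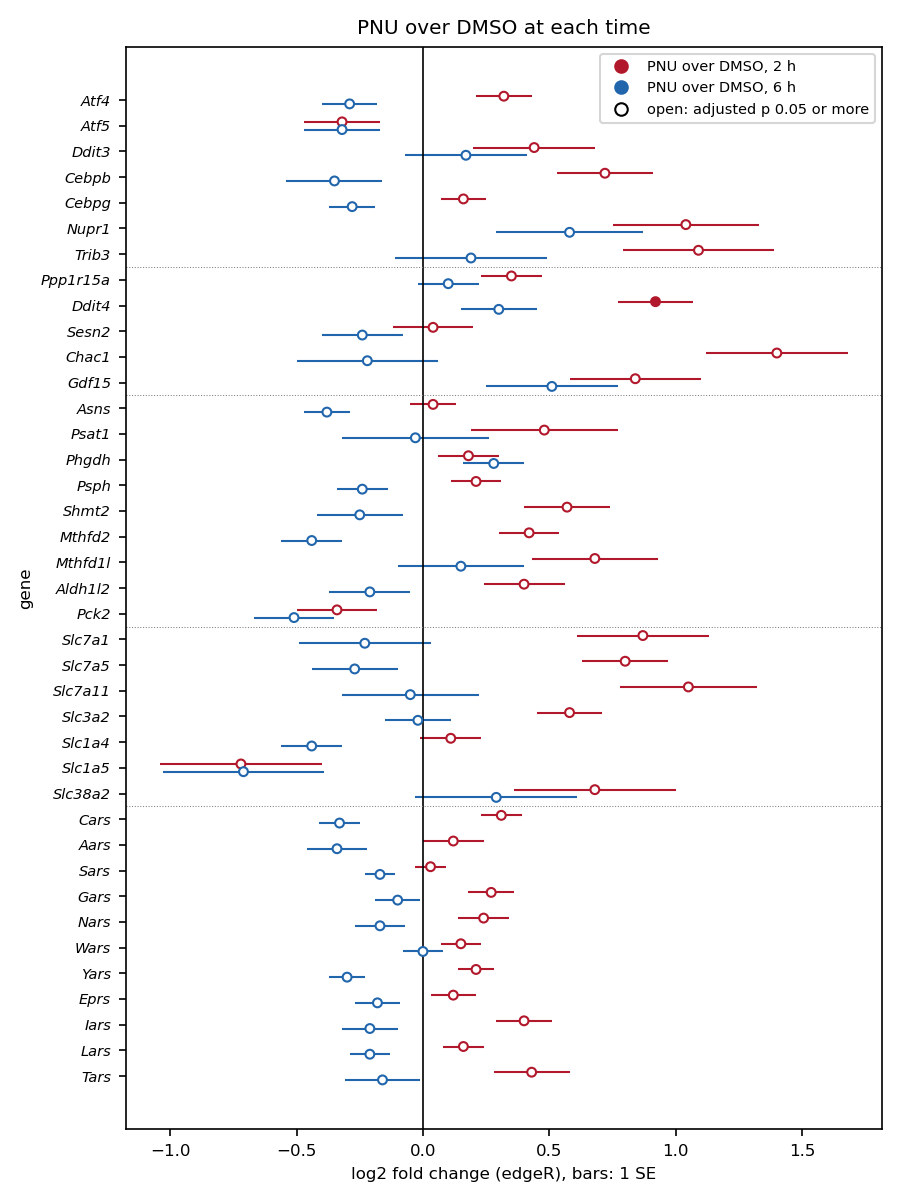
Log2 fold change of PNU over DMSO for each member, with bars of 1 SE, at 2 h and at 6 h. At 2 h 36 of 39 members lie above 0 with Chac1 highest at 1.40, and at 6 h 29 of 39 lie below 0.

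At 6 h the members lay mostly lower with PNU than with DMSO, by small amounts. Log2 fold changes were negative for 29 of 39 members, against 50.7% of genes, with a median of -0.21, against -0.00 over all genes tested, and a range of -0.71 to 0.58. In edgeR's test 0 of 39 members passed, against 1.05% of genes, and 14 had an unadjusted p under 0.05, against 15.6% of genes. DESeq2 called 5 members lower, against 2.06% of genes, and limma-voom called 0. All 3 PNU libraries were below all 3 DMSO libraries for 24 of 39 members (61.5%), 10 of the 11 synthetases among them, against 20.8% of genes. They were above for 3 members, Nupr1, Ddit4 and Phgdh, against 14.1% of genes. The smallest adjusted p-values were those of Yars (log2 fold change -0.30 ± 0.07 SE, adjusted p = 0.0588), Cars (log2 fold change -0.33 ± 0.08 SE, adjusted p = 0.0780) and Asns. At 6 h the 5 neuron markers, of which 1 had a median above 1 CPM, summed to 22.4 to 53.1 CPM with PNU. With DMSO they summed to 16.4 to 18.9 CPM, and their part in the result was not tested. Without PNU replicate 1, which was high for Ddit3, Trib3 and Slc1a5, 5 members were called lower, against 2.48% of genes. With the 6 libraries at 6 h fitted alone, edgeR called 13 members lower and 1 higher. Of 16348 genes, 798 were then called lower and 848 higher. Without PNU replicate 1 and DMSO replicate 3 at 2 h, it called 24 members lower and 5 higher. Of 17406 genes, 2501 were then called lower and 2480 higher.

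The difference of the PNU effect between 6 h and 2 h was negative for 37 of 39 members, against 46.0% of genes. Its median was -0.46, against 0.03 over all genes tested, and its lowest value that of Chac1 (log2 fold change -1.62 ± 0.39 SE, adjusted p = 0.192). In edgeR's test 0 of 39 members passed, against 0.0350% of genes, although 25 had an unadjusted p under 0.05, against 11.3% of genes. DESeq2 called 8 members, Atf4, Cebpb, Chac1, Mthfd2, Slc7a5, Cars, Yars and Iars, as lower, against 0.955% of genes, and limma-voom called 0. Without DMSO replicate 3 at 2 h edgeR called 25 members lower, against 8.19% of genes, and without PNU replicate 1 at 6 h it called 6 lower, against 0.489%.

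Over time in PNU cultures, the number of members called varied with the libraries used. With each of the 6 PNU libraries left out in turn, between 21 and 27 members were called, and 21 were called every time. Over all genes, 566 to 1710 were called in these fits, of 17587 to 17648 tested. Cebpg, Trib3, Ddit4, Psat1, Mthfd1l, Sars, Wars and Eprs lost the call without at least 1 library, with adjusted p in edgeR reaching between 0.0616 for Ddit4 and 0.0966 for Trib3. Psat1 and Mthfd1l lost it whichever of the 6 libraries was left out. With near-identical libraries summed into 1, 0 members and 0 genes were called in edgeR, with 27 members and 2236 genes at an unadjusted p under 0.05. In PNU cultures all 3 libraries at 6 h were below all 3 at 2 h for 32 members, against 21.0% of genes, and above for 1, Atf5, against 30.7%. The summed level of 4 proliferation markers, Mki67, Top2a, Ccnb1 and Cdk1, moved alongside, at 228 to 361 CPM with PNU at 6 h, against 467 to 490 CPM at 2 h. At 2 h DMSO cultures had 215 to 530 CPM of these markers and at 6 h 265 to 275 CPM, and their part in the result was not tested.

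In DMSO cultures at 6 h against 2 h, log2 fold changes of the members were negative for 34 of 39, against 53.2% of genes, but small, with a median of -0.20, against -0.01 over all genes tested. All 3 libraries at 6 h were below all 3 at 2 h for 3 members, against 3.64% of genes. The comparisons of time within PNU and of PNU with DMSO share libraries, so their values are given side by side and not as separate support.

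**Figure D4:**
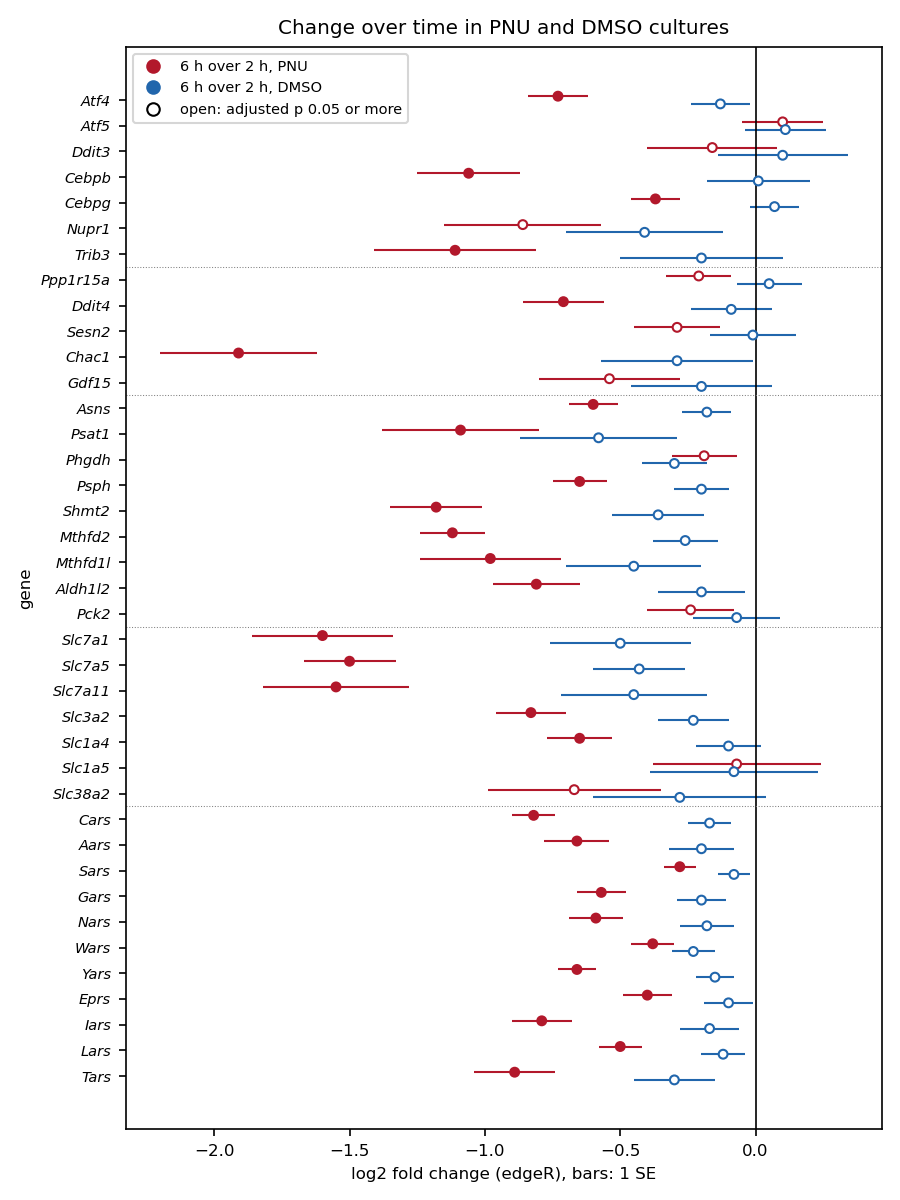
Log2 fold change of 6 h over 2 h for each member within PNU cultures and within DMSO cultures, with bars of 1 SE. In PNU cultures the values run between -1.91 for Chac1 and 0.10 for Atf5, and in DMSO cultures between -0.58 and 0.11.

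Other genes around the pathway were counted in 6 further lists, of which 96 genes were tested. Over time in PNU cultures 7 of these rose and 21 fell, where 7.42% of all genes rose and 8.66% fell. Among 14 genes for the eIF2 kinases and eIF2 control, 2 rose and 2 fell. The endoplasmic reticulum kinase gene Eif2ak3 rose (38.5 to 39.6 CPM at 6 h, against 22.5 to 26.8 CPM at 2 h, log2 fold change 0.57 ± 0.11 SE, adjusted p = 0.00898) and so did Eif2ak2, the kinase for double-stranded RNA (log2 fold change 0.47 ± 0.11 SE, adjusted p = 0.0187). Ppp1r15b, the constitutive partner of the eIF2 phosphatase, fell (log2 fold change -0.76 ± 0.15 SE, adjusted p = 0.0102), as did Eif2ak4, the kinase that senses uncharged tRNA (log2 fold change -0.28 ± 0.07 SE, adjusted p = 0.0257). All 3 PNU libraries at 6 h lay above those at 2 h for Eif2ak3. Its DMSO libraries had 27.8 to 37.2 CPM at 2 h and 36.4 to 39.7 CPM at 6 h. Mean levels of Eif2ak2 were 23.6 CPM at 2 h and 34.0 CPM at 6 h with PNU, against 29.2 and 32.1 CPM with DMSO.

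Among 21 other reported ATF4 targets tested, 10 fell (47.6%) and 3 rose (14.3%) in PNU cultures over time. Of all genes tested, 8.66% fell and 7.42% rose. Vegfa, an angiogenic growth factor, stood at 311, 268 and 264 CPM at 6 h, against 758, 604 and 607 CPM at 2 h (log2 fold change -1.28 ± 0.32 SE, adjusted p = 0.0257). Atf3, a stress-induced repressor, stood at 6.32, 3.11 and 2.84 CPM at 6 h, against 13.7, 11.7 and 11.1 CPM at 2 h (log2 fold change -1.63 ± 0.48 SE, adjusted p = 0.0434). Both had DMSO replicate 3 highest among the DMSO libraries at 2 h, with 461 CPM of Vegfa and 5.91 CPM of Atf3. Adm2, a secreted peptide of the adrenomedullin family, fell as well (log2 fold change -1.67 ± 0.24 SE, adjusted p = 0.00414), while Bbc3, which encodes the cell death protein PUMA, rose (log2 fold change 1.27 ± 0.38 SE, adjusted p = 0.0456). With PNU, Bbc3 had 8.79, 13.6 and 14.8 CPM at 2 h and 40.8, 26.3 and 26.5 CPM at 6 h. With DMSO, Bbc3 had 44.3, 34.1 and 12.5 CPM at 2 h and 38.3, 34.6 and 35.3 CPM at 6 h. At 6 h Aldh18a1, the first enzyme of proline synthesis, fell with PNU, at 93.0, 88.5 and 89.3 CPM in the PNU libraries, against 122, 126 and 126 CPM in the DMSO libraries (log2 fold change -0.45 ± 0.07 SE, adjusted p = 0.00978).

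Of 12 other cytosolic tRNA synthetase and scaffold genes, 4 fell over time in PNU cultures and 0 rose, among them Vars, for valine (log2 fold change -0.67 ± 0.10 SE, adjusted p = 0.00489), and Mars, for methionine (log2 fold change -0.56 ± 0.07 SE, adjusted p = 0.00260). The other two were Farsa and Farsb, the subunits for phenylalanine, with log2 fold changes of -0.35 ± 0.10 and -0.33 ± 0.10. Of 17 mitochondrial tRNA synthetases, 0 passed in edgeR, DESeq2 or limma-voom, and 1 had an unadjusted p under 0.05, against 35.1% of all genes tested. Of all genes tested, 8.66% fell and 7.42% rose over time in PNU cultures. Whether the lists differed from each other was not tested. Of 14 other one-carbon and methionine cycle genes, 4 fell and 2 rose. The cytosolic serine hydroxymethyltransferase Shmt1 fell (log2 fold change -1.13 ± 0.26 SE, adjusted p = 0.0183), as did Mat2a, which makes S-adenosylmethionine (log2 fold change -1.08 ± 0.21 SE, adjusted p = 0.0116). Gldc, of the glycine cleavage system, rose, at 4.27, 4.90 and 4.55 CPM at 6 h, against 0.994, 1.24 and 1.20 CPM at 2 h (log2 fold change 1.93 ± 0.22 SE, adjusted p = 0.00164), and it also rose with PNU against DMSO at 6 h (log2 fold change 1.24 ± 0.21 SE, adjusted p = 0.0215). Aldh1l1, the cytosolic formyl-tetrahydrofolate dehydrogenase, rose at a low level, with 0.246, 0.948 and 1.14 CPM at 6 h, against 0.265, 0.109 and 0.180 CPM at 2 h (log2 fold change 2.01 ± 0.56 SE, adjusted p = 0.0345). Of 18 other amino acid carriers tested, 1 fell (5.56%, against 8.66% of genes), the glycine carrier Slc6a9 (log2 fold change -0.67 ± 0.13 SE, adjusted p = 0.0110).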

How the data were processed

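The deposited values are whole-number counts of reads per gene in 12 libraries, with no normalization, beside a counted length per gene in bases. Libraries were made from poly(A) RNA, per the labels' protocols, which name fastp 0.23.2 for trimming, STAR 2.5.2b for alignment (GRCm38) and Subread 1.5.2, through featureCounts, for the counts. DESeq2 appears in the submitters' processing notes, but not what it was used for. The sources used here do not give whether counting used the strand, so genes that overlap an antisense partner or have near-identical copies are uncertain. Gene identifiers were paired with symbols for 48970 of 49315 genes.

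Levels are CPM of the library total, with the SD over 3 libraries. Tests used edgeR 4.0.16 (R 4.3.3) on the counts: filterByExpr, TMM scaling and a robust quasi-likelihood fit of 4 group means over all 12 libraries. This fit assumes like spread in all groups, but coefficients of variation of pairs within groups ran between 0.0163 and 0.384. There were 5 contrasts: PNU against DMSO at each time, the difference between these, and 6 h against 2 h within PNU and within DMSO. Adjusted p-values are two-sided Benjamini-Hochberg values over all 17164 genes, with a threshold of 0.05, and the SE is the size of the log2 fold change divided by the square root of F. The code was tested on simulated data. The alternatives were DESeq2 1.42.0 and its size factors, limma-voom (limma 3.58.1), no filter, the libraries of a contrast alone, a replicate block, near-identical libraries summed, the 2 libraries that stand apart left out, and each library left out.

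The 39 members, their roles and the other lists were chosen with earlier results of these data known. All members were named, 20 of them and every member that passed in any contrast with values per library, and up to 4 passing genes of each other list by largest fold change. Promoter windows were RefSeq's on GRCm38.p6.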

Additional observations from a re-analysis of the deposited data

How the results depend on the processing

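No member was called in DMSO cultures over time under any alternative, and the fall of members over time in PNU cultures kept its direction in all called members. For PNU against DMSO at 2 h, 50 genes and 1 member were called. DESeq2 called 2511 genes and 17 members, limma-voom 2 members, no filter 140 genes and 2 members, the libraries of the contrast alone 0 and 0, a replicate block 311 genes and 5 members, near-identical libraries summed 0 and 0, and both libraries that stand apart left out 9080 genes and 34 members. Without both libraries, 31 of these members were higher and 3 lower, and the 9080 genes were of 17406 tested. Leaving out 1 library gave 0 to 7724 genes and 0 to 30 members. At an unadjusted p under 0.05 there were 2926 genes in the contrast alone and 1487 with libraries summed. At 6 h, 181 genes and 0 members were called, against 923 and 5 with DESeq2, 1646 and 14 in the contrast alone, 296 genes with the replicate block, 0 genes with libraries summed (267 unadjusted) and 4981 and 29 without both libraries; leaving out 1 library gave 22 to 1057 genes and 0 to 5 members. For the difference of the PNU effect, 6 genes and 0 members were called, against 279 and 8 with DESeq2, 15 genes with no filter, 0 genes with the replicate block (1929 unadjusted), 0 genes with libraries summed (226 unadjusted) and 3788 and 32 without both libraries, and 0 to 2947 genes and 0 to 25 members with 1 library left out. For time in DMSO, 0 genes were called, against 23 with DESeq2, 117 without both libraries and 0 to 4 with 1 library left out. For time in PNU, 2759 genes and 29 members were called, against 5311 genes in the contrast alone, 0 genes and 0 members with libraries summed (2236 genes unadjusted) and 6170 genes without both libraries, and 566 to 1710 genes and 21 to 27 members with 1 library left out. The cause of these differences was not tested. Members called at 6 h were 13 lower and 1 higher in the contrast alone, and 24 lower and 5 higher without both libraries.

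Log2 fold changes that turned sign had not passed. At 2 h, with 1 library left out, Sesn2 ran between -0.15 and 0.21 (lowest without DMSO replicate 3, and -0.15 without both libraries) and Asns between -0.02 and 0.12 (-0.02 without PNU replicate 1, -0.01 without DMSO replicate 1). At 6 h, Ddit3 ran between -0.26 and 0.36, Trib3 between -0.38 and 0.42, Ppp1r15a between -0.00 and 0.15 and Psat1 between -0.12 and 0.10, each turned by leaving out PNU replicate 1, with -0.26, -0.38, -0.00 and 0.10 also without both libraries, and Slc7a11 between -0.12 and 0.00 (0.00 without DMSO replicate 1). Slc3a2 ran between -0.13 and 0.04 (positive without PNU replicate 2 or 3, and 0.02 with libraries summed) and Wars between -0.03 and 0.04 (negative without PNU replicate 1 or DMSO replicate 2 or 3, and -0.03 without both libraries). Without both libraries Ddit3 and Trib3 then passed in edgeR (adjusted p = 0.0106 and 0.0231). Same-numbered samples were taken to share only a number, since not every pair's correlation of deviations was over 0.1: these ran between -0.0684 and 0.0577 for PNU and DMSO at 2 h, but were 0.17, 0.111 and 0.0993 for PNU at 6 h and 2 h. With the replicate block 2847 genes and 30 members were called over time in PNU, the further member being Nupr1.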
